A study of Mus musculus with 6 samples.

Results

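The integrated stress response genes described here are 10 genes, chosen by name as the eIF2alpha kinase Eif2ak3, the transcription factor Atf4 and genes known as its targets: Atf3, Atf5, Ddit3, Ddit4, Trib3, Chac1, Sesn2 and Gdf15. All 10 were found among the 24054 gene symbols of the expected count table. RNA was sequenced from TIBxDNAJ-PKAc, a mouse line of genotype DNAJ-PKAc that carries the kinase fusion typical of fibrolamellar liver carcinoma, and from its parental line TIBx, of genotype WT, with 3 libraries each (A to C). The labels give the cell type of both as liver BNL 1ME A.7R.1, a chemically transformed line from embryonic mouse liver. Both lines were grown in the same DMEM medium with 10% serum, 2 mM glutamine, 1 mM pyruvate and nonessential amino acids, and the labels name no drug or stress treatment in either group. There was 1 line per genotype, so the fusion and other differences between the lines cannot be told apart. The labels do not say that the libraries came from separate cultures. The p-values therefore set the group difference only against the spread of these libraries, and that spread may be technical.

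The integrated stress response is a shared reaction to unfolded protein in the endoplasmic reticulum, missing amino acids, heme shortage and viral RNA. Each stress activates a kinase that phosphorylates the translation factor eIF2alpha, which slows most protein synthesis while translation of the Atf4 mRNA goes up through upstream reading frames in its leader. ATF4 protein then binds composite C/EBP-ATF sites and switches on genes of amino acid supply, redox balance and, under lasting stress, cell death, so its target mRNAs are a closer readout of the pathway than the Atf4 mRNA itself. In liver the pathway is known from protein-folding load and amino acid restriction. Only RNA was measured here, not eIF2alpha phosphorylation or protein.

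The letters of the composite site core were found in the promoters of 3 of the 10 genes. Windows of RefSeq (GRCm38.p6), from 250 bases before to 50 after each start site, were searched on both strands for the core of that site, TGATGNAA (TTNCATCA on the other strand). The core was present for Atf3, Chac1 and Trib3, and in 3.97% of 32851 promoter windows of all genes. The full cyclic AMP response element TGACGTCA, the site of the PKA target CREB, was in none of the 12 windows of the 10 genes, and in 1.79% of all windows. The 3 windows that hold the core are shown, together with that of Ddit3, the member with one of the widest ranges between libraries, which had no match. Capitals mark the core, and sequences run 5′ to 3′ along the gene. The Trib3 window lies at chr2:152344011-152344310 (minus strand), the Chac1 window at chr2:119350992-119351291 (plus), the Atf3 window at chr1:191183284-191183583 (minus) and the Ddit3 window at chr10:127290543-127290842 (plus).
Trib3: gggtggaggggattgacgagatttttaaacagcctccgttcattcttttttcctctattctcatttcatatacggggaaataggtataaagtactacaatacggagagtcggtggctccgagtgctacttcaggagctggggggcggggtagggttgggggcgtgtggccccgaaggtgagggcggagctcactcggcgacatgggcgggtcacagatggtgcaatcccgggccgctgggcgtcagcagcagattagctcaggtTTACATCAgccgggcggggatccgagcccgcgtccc
Chac1: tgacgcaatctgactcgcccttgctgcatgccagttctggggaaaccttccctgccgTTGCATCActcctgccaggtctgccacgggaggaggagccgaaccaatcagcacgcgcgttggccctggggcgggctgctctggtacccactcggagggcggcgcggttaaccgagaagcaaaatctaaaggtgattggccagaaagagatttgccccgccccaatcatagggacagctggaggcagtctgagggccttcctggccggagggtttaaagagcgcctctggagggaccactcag
Atf3: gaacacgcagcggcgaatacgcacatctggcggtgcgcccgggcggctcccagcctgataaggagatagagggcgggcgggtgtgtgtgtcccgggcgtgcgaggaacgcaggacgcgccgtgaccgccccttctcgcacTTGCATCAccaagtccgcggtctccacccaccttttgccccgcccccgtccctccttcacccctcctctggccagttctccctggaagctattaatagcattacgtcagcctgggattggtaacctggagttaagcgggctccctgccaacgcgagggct
Ddit3: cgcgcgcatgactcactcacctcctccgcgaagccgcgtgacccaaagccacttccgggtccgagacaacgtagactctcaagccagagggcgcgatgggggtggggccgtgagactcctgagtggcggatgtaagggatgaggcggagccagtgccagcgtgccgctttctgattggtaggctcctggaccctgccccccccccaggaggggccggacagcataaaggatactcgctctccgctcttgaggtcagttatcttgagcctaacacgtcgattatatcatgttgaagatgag
Counting the first transcribed base as 1, the core lay at bases -110 to -103 for Atf3, at -193 to -186 for Chac1 and at 15 to 22 for Trib3, each time with TTNCATCA on the gene's strand. A match is a description of these letters, not evidence of binding. The lack of a match, as for Ddit3, says nothing about sites outside the window searched.

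Library totals ran from 8095549 to 9969590 expected counts, so 1 count was about 0.100 to 0.124 CPM (counts per 1000000 total counts). DNAJ-PKAc C stood apart from DNAJ-PKAc A and B (r of 0.914 and 0.911 across genes on log2 CPM, against 0.993 between A and B), and WT B from WT A and C (r of 0.957 and 0.958, against 0.987). The ribosomal precursor Rn45s took 2.66% of counts in WT B and at most 1.05% in the others. Prkaca, the kinase part of the fusion, had a log2 difference of 0.59 (SE 0.19) with all 3 DNAJ-PKAc libraries above all 3 WT libraries, and did not pass the test (edgeR adjusted p = 0.154). It passed in the fit that left out DNAJ-PKAc C, at 0.71 (edgeR adjusted p = 0.0242), which called 14.3% of all genes higher. In bulk RNA, fewer cells of a type and less RNA per cell cannot be told apart. Of 15 hepatocyte markers 10 had no count in any library, Alb, Ttr, Apoa1 and Hnf4a among them. The 3 that could be tested all passed, in both directions. The fetal liver gene Afp rose, with 103, 61 and 19 counts in DNAJ-PKAc libraries A to C, against 3, 0 and 1 counts in WT (edgeR adjusted p = 0.0252). The tyrosine breakdown gene Fah rose 1.88-fold (edgeR adjusted p = 0.0329), and the epithelial keratin gene Krt8 fell to 14, 9 and 1 counts in DNAJ-PKAc, against 74, 64 and 68 counts in WT (edgeR adjusted p = 0.0360). These 3 calls were lost without any 1 library other than DNAJ-PKAc C (edgeR adjusted p of 0.0802 to 0.147). The summed markers of leukocytes were at 1.89 to 4.82 CPM in DNAJ-PKAc and 1.25 to 3.27 CPM in WT, with Ptprc at 0 and Cd68 not past the test (edgeR adjusted p = 0.294), and those of endothelium at most at 1.06 and 2.39 CPM. Of 9 mesenchymal markers Thy1 was at 0, and the sum was at 18656 to 35244 CPM in DNAJ-PKAc and 29323 to 32452 CPM in WT. Among them the smooth muscle actin gene Acta2 rose 4.55-fold (edgeR adjusted p = 0.0102), a call lost without WT A, B or C (edgeR adjusted p = 0.0527, 0.0569 and 0.0558). Vim, Col1a2, Col3a1 and S100a4 did not pass (log2 -0.14, -0.19, -1.11 and 0.55).

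Over the 3 DNAJ-PKAc and the 3 WT libraries, none of these genes passed the test. Of the 10, 9 had enough counts to be tested and 0 rose or fell by edgeR's quasi-likelihood test, with a Benjamini-Hochberg threshold of 0.05 over 10975 genes. Among all genes tested 3.51% were called, 1.37% higher and 2.14% lower in DNAJ-PKAc. Eif2ak3 alone had an unadjusted p under 0.05, as did 21.5% of all genes (9.72% on the lower side), and DESeq2 and limma-voom also called 0 of the 9, each with 1 at an unadjusted p under 0.05. The median fitted log2 difference of the 9 genes, DNAJ-PKAc minus WT, was 0.02, beside 0.05 over all genes tested. This even result over group means hid a split within the DNAJ-PKAc libraries. In 7 of the 9 genes (Atf4, Atf5, Ddit3, Ddit4, Trib3, Chac1 and Sesn2) DNAJ-PKAc C was the highest of all 6 libraries, as it was in 23.6% of all genes tested, and in 5 (Eif2ak3, Atf3, Atf5, Ddit3 and Trib3) DNAJ-PKAc A and B both lay below every WT library, as in 28.4% of all genes. Atf5, Ddit3 and Trib3 had DNAJ-PKAc A and B below and DNAJ-PKAc C above every WT library, as 5.98% of all genes did. In the same 3 genes DNAJ-PKAc C was at least 2-fold above the mean of DNAJ-PKAc A and B, as in 8.46% of all genes. The median of the 9 genes against the WT mean was -0.41 in DNAJ-PKAc A, -0.41 in DNAJ-PKAc B and 0.57 in DNAJ-PKAc C on the log2 scale. The WT libraries A, B and C had medians of 0.13, -0.01 and -0.16. Without DNAJ-PKAc C, 2 of the 9 genes fell (Ddit3 and Trib3) and 0 rose, in a fit that called 25.3% of all genes, 14.3% higher and 11.0% lower. Without both WT B and DNAJ-PKAc C, 4 fell (Eif2ak3, Atf3, Atf5 and Ddit3) and 0 rose, in a fit that called 48.5% of all genes, 23.9% higher and 24.5% lower. Without WT B alone 0 passed (2 at an unadjusted p under 0.05 in edgeR), with 0.994% of all genes called, 0.235% higher and 0.759% lower.

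**Figure D1:**
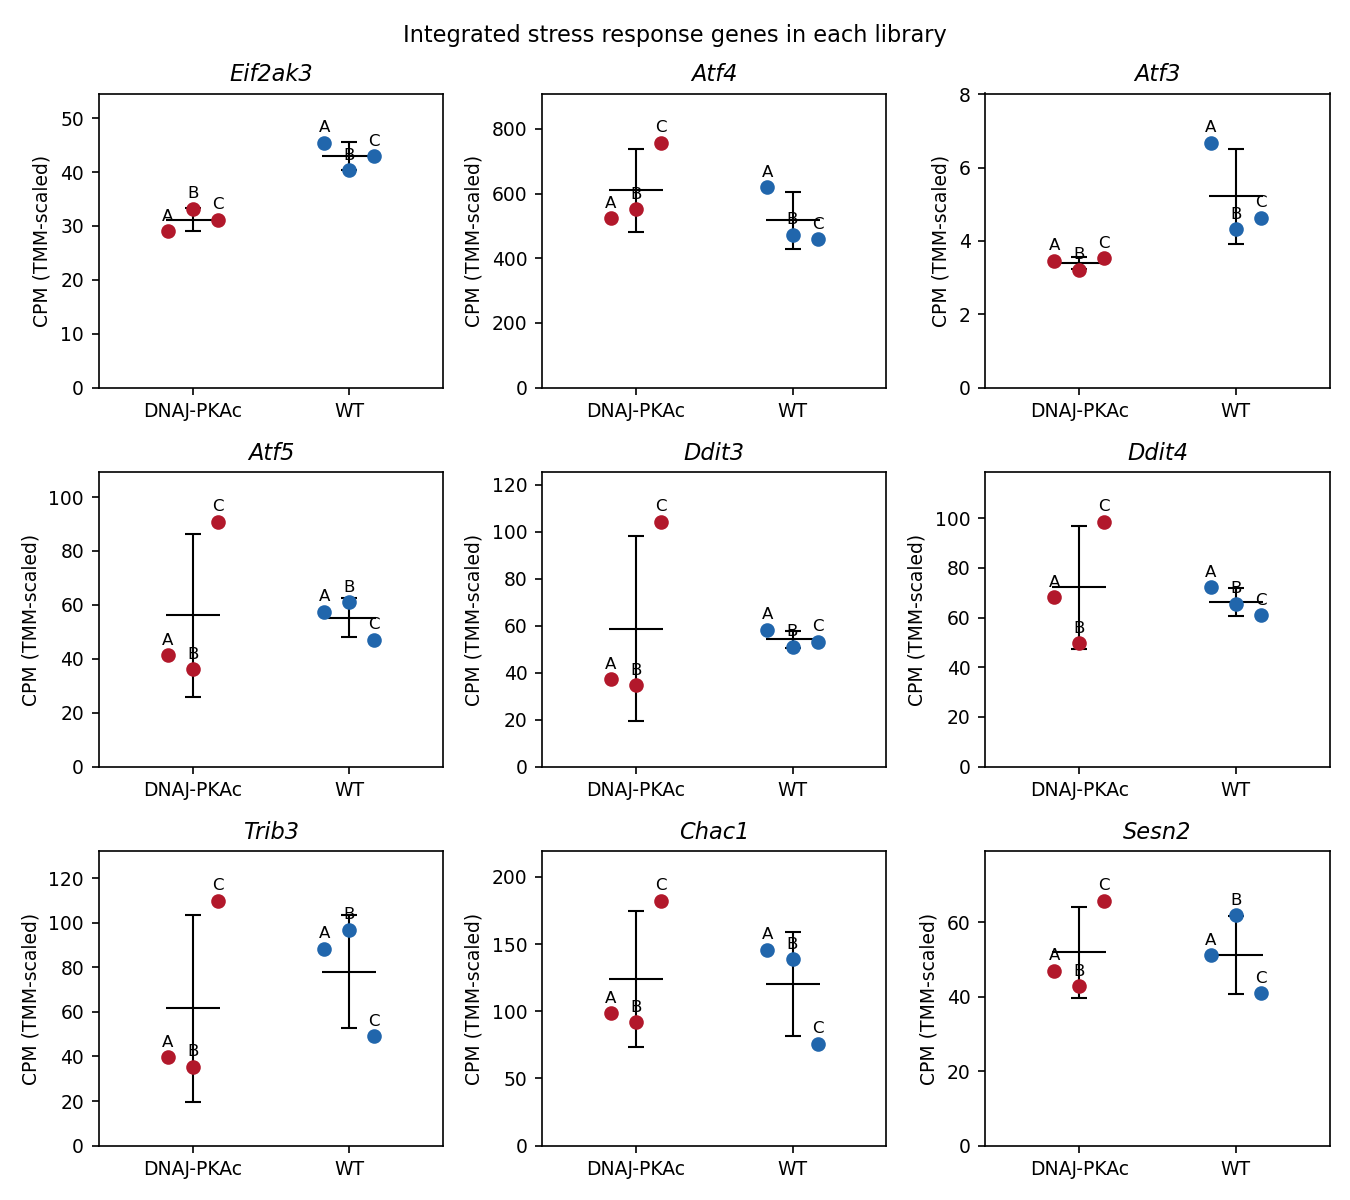
TMM-scaled CPM (vertical axis, from 0) of the 9 tested genes in each library, with DNAJ-PKAc left and WT right, letters naming the library, and the horizontal line and bars giving mean and SD (n = 3). In 7 panels DNAJ-PKAc C is the highest point of all, whereas in the Eif2ak3 and Atf3 panels all 3 DNAJ-PKAc points lie below the WT points.

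Eif2ak3 encodes PERK, the eIF2alpha kinase of the endoplasmic reticulum membrane that senses unfolded protein (chromosome 6, 70844484 to 70905241 in mm10, plus strand). It was at 29.0, 33.2 and 31.2 CPM in DNAJ-PKAc libraries A to C, against 45.5, 40.4 and 42.9 CPM in WT libraries A to C. The groups did not overlap and the libraries within each lay close together, with DNAJ-PKAc C between DNAJ-PKAc A and B. The means were 31.1 ± 2.11 CPM in DNAJ-PKAc and 42.9 ± 2.55 CPM in WT (SD, n = 3 each). The fitted log2 difference was -0.46 (SE 0.15, 95% interval -0.81 to -0.11), and the adjusted p of 0.1496 in edgeR missed the threshold. Groups that did not overlap with DNAJ-PKAc lower were found in 13.1% of all genes, and with DNAJ-PKAc higher in 15.8%. The difference was -0.46 without DNAJ-PKAc C too (edgeR adjusted p = 0.0592). It was -0.56 and passed without both WT B and DNAJ-PKAc C (edgeR adjusted p = 0.00141). Those are the libraries that stood apart from the rest of their groups, and that fit called 48.5% of all genes, 24.5% lower.

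The other 3 eIF2alpha kinases were read beside it. Eif2ak4 (GCN2, which senses uncharged tRNA) was at 46.3, 41.1 and 38.8 CPM in DNAJ-PKAc libraries A to C, against 31.7, 35.6 and 30.2 CPM in WT libraries A to C. It lay on the other side of WT from Eif2ak3, with a log2 difference of 0.37 (SE 0.16, edgeR adjusted p = 0.230). Eif2ak1 (HRI, the heme-regulated kinase) differed by -0.03 (SE 0.20, edgeR adjusted p = 0.937). Eif2ak2 (PKR, which senses double-stranded RNA) was at 155, 168 and 71.2 CPM in DNAJ-PKAc and at 108, 123 and 87.3 CPM in WT, so that DNAJ-PKAc C lay on the opposite side of WT from DNAJ-PKAc A and B (log2 difference 0.31, SE 0.33, edgeR adjusted p = 0.590). These 3 genes were singled out for their role in the pathway, with values known.

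Atf4, the transcription factor at the centre of the response (chromosome 15, 80255184 to 80257545, plus strand), was the most abundant member. It was at 524, 551 and 758 CPM in DNAJ-PKAc libraries A to C, against 620, 472 and 458 CPM in WT libraries A to C. DNAJ-PKAc C was the highest library, and DNAJ-PKAc A and B lay inside the WT range. The log2 difference was 0.24 (SE 0.21, 95% interval -0.26 to 0.74, edgeR adjusted p = 0.526). Leaving out DNAJ-PKAc C gave 0.06.

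Atf5 encodes a close relative of ATF4 that is likewise translated under stress (chromosome 7, 44812256 to 44816658, minus strand). It was at 41.3, 36.2 and 90.9 CPM in DNAJ-PKAc libraries A to C, against 57.5, 61.0 and 47.1 CPM in WT libraries A to C. All 3 WT libraries lay between DNAJ-PKAc A and B below and DNAJ-PKAc C above. The log2 difference was 0.02 (SE 0.36, edgeR adjusted p = 0.974). Leaving out DNAJ-PKAc C gave -0.51 (SE 0.17, edgeR adjusted p = 0.0654). Atf5 overlaps Nup62 and Il4i1 on the other strand, and whether counting used strand is not stated in the labels, so its reads are uncertain.

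Atf3 encodes a stress-induced repressor of the same factor family (chromosome 1, 191170296 to 191183333, minus strand) and was scarce. It had 35, 26 and 29 counts (3.46, 3.21 and 3.53 CPM) in DNAJ-PKAc libraries A to C, against 61, 37 and 42 counts (6.68, 4.32 and 4.64 CPM) in WT libraries A to C. The groups did not overlap, and unlike most members DNAJ-PKAc C lay with DNAJ-PKAc A and B. The log2 difference was -0.61 (SE 0.28, 95% interval -1.28 to 0.05, edgeR adjusted p = 0.258), and without both WT B and DNAJ-PKAc C it was -0.80 and passed (edgeR adjusted p = 0.0321). Without WT A, the highest library, it was -0.39 (edgeR adjusted p = 0.529).

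Ddit3, which encodes CHOP, the factor tied to death after lasting endoplasmic reticulum stress (chromosome 10, 127290793 to 127296291, plus strand), showed the split at its clearest. It was at 37.3, 34.7 and 104 CPM in DNAJ-PKAc libraries A to C, against 58.4, 51.1 and 53.2 CPM in WT libraries A to C. The WT libraries lay within a narrow band, DNAJ-PKAc A and B below it and DNAJ-PKAc C at 1.93 times the WT mean and 2.90 times the mean of DNAJ-PKAc A and B. The SD was 39.5 CPM in DNAJ-PKAc (mean 58.8) and 3.76 CPM in WT (mean 54.2, n = 3 each), and the log2 difference of 0.12 (SE 0.42, 95% interval -0.88 to 1.11, edgeR adjusted p = 0.889) is therefore loosely set. Without DNAJ-PKAc C, Ddit3 was 1.504-fold lower in DNAJ-PKAc and passed (log2 -0.59, SE 0.14, edgeR adjusted p = 0.0248). That fit called 11.0% of all genes lower. Ddit3 overlaps Mars, a tRNA synthetase gene on the other strand, and its reads are uncertain in the same way.

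Trib3 encodes a pseudokinase that restrains AKT and feeds back on ATF4 (chromosome 2, 152337425 to 152344060, minus strand). It was at 39.6, 35.4 and 110 CPM in DNAJ-PKAc libraries A to C, against 88.3, 96.9 and 49.0 CPM in WT libraries A to C. Here WT was split as well, with WT C nearer to DNAJ-PKAc A than to WT A or B. The log2 difference was -0.34 (SE 0.48, 95% interval -1.47 to 0.79, edgeR adjusted p = 0.698). Without DNAJ-PKAc C, Trib3 was 2.08-fold lower in DNAJ-PKAc and passed (log2 -1.05, SE 0.30, edgeR adjusted p = 0.0461). That fit called 11.0% of all genes lower. Trib3 did not pass without both WT B and DNAJ-PKAc C (log2 -0.92, edgeR adjusted p = 0.138).

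Chac1 encodes a glutathione-degrading enzyme that is among the most ATF4-dependent genes (chromosome 2, 119351242 to 119354326, plus strand). It was at 98.5, 91.9 and 182 CPM in DNAJ-PKAc libraries A to C, against 146, 139 and 75.7 CPM in WT libraries A to C. WT C was the lowest library and DNAJ-PKAc C the highest, as in Atf4 and Sesn2. The log2 difference was 0.05 (SE 0.35, 95% interval -0.77 to 0.87, edgeR adjusted p = 0.944).

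Ddit4 and Sesn2 restrain the growth kinase complex mTORC1. Ddit4 (REDD1, which acts through the TSC complex; chromosome 10, 59949675 to 59951770, minus strand) was at 68.2, 49.6 and 98.7 CPM in DNAJ-PKAc libraries A to C, against 72.3, 65.6 and 61.1 CPM in WT libraries A to C. Its log2 difference was 0.12 (SE 0.26, edgeR adjusted p = 0.805). Sesn2 (sestrin 2, a leucine sensor; chromosome 4, 132492804 to 132510456, minus strand) was at 47.0, 42.9 and 65.8 CPM in DNAJ-PKAc libraries A to C, against 51.1, 61.9 and 40.8 CPM in WT libraries A to C. Its log2 difference was 0.02 (SE 0.23, 95% interval -0.53 to 0.56, edgeR adjusted p = 0.969). In both genes DNAJ-PKAc C was the highest library and the groups overlapped.

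Gdf15, a stress-induced hormone that acts on appetite (chromosome 8, 70629393 to 70632470, minus strand), was not detectable as expressed in either line at this depth. It had 1 count in DNAJ-PKAc B and 0 in DNAJ-PKAc A and C, against 1 count in WT B and 0 in WT A and C. A floor of 3 counts per library corresponds to 0.297 to 0.370 CPM in DNAJ-PKAc and 0.329 to 0.350 CPM in WT, for counting error only, and no fold is given.

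**Figure D2:**
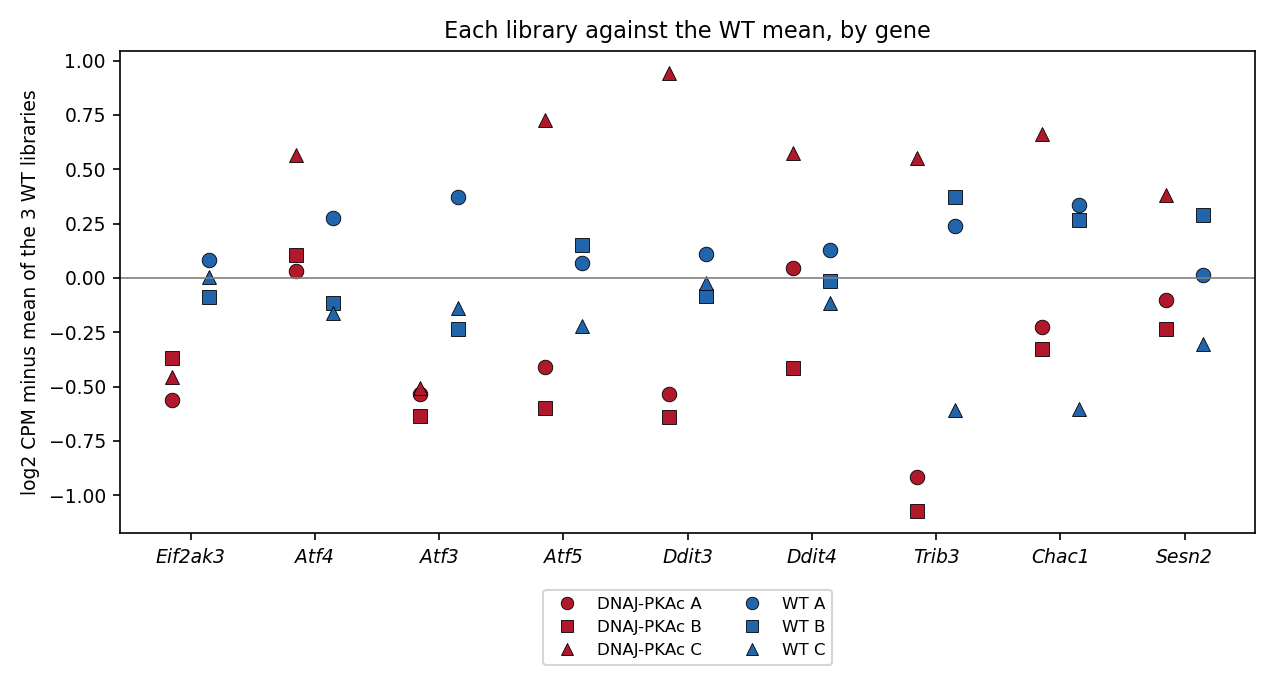
Log2 CPM of each library minus the mean of the 3 WT libraries (vertical axis) for the 9 tested genes, with DNAJ-PKAc in red left of WT in blue and a symbol for each letter. DNAJ-PKAc C (red triangles) lies above 0 in 7 genes, up to 0.94 for Ddit3, while DNAJ-PKAc A and B reach -0.92 and -1.07 for Trib3.

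Mean levels were divided by the length of the longest GENCODE transcript. Atf4 was highest, at 303 CPM per kilobase in DNAJ-PKAc and 256 in WT, followed by Chac1 (75.9 and 73.4) and Ddit3 (60.7 and 56.0). Ddit4 (41.1 and 37.8), Atf5 (30.9 and 30.4) and Trib3 (30.4 and 38.5) came next, then Sesn2 (14.9 and 14.7), Eif2ak3 (6.90 and 9.51) and Atf3 (1.72 and 2.63). In WT the order was Atf4, Chac1, Ddit3, Trib3, Ddit4, Atf5, Sesn2, Eif2ak3 and Atf3, so that Trib3 stood above Ddit4 and Atf5. The WT ranges of Chac1 and Ddit3 overlapped, as did those of Trib3 and Ddit4, and the other neighbours in the WT order were separate. The members also differed in how alike their patterns were. By the root mean square difference of log2 CPM, each gene centred on its mean over the 6 libraries, Atf5 and Ddit3 were the closest pair (0.16), and Eif2ak3 and Atf3 were each other's nearest too (0.18). Trib3 and Eif2ak3 lay farthest apart (0.61). These distances rest on 6 libraries that the genes share and are given as a description.

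**Figure D3:**
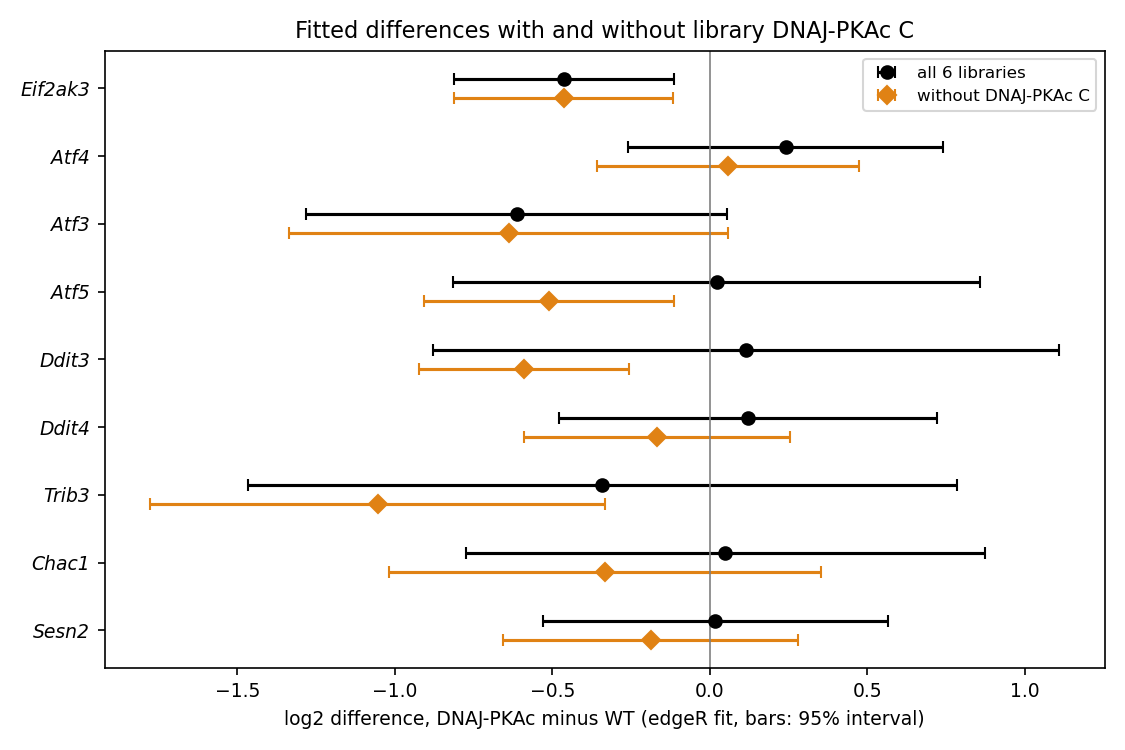
Fitted log2 difference, DNAJ-PKAc minus WT (horizontal axis), of the 9 tested genes with 95% intervals, from all 6 libraries (black circles) and without DNAJ-PKAc C (orange diamonds). The interval of Ddit3 runs from -0.88 to 1.11 with all libraries and from -0.92 to -0.26 without DNAJ-PKAc C, whereas those of Eif2ak3 and Atf3 hardly move.

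The sum of the proliferation markers was lowest in DNAJ-PKAc C, the library in which 7 of the 9 stress response genes were highest (all but Eif2ak3 and Atf3). The summed CPM of 24 cell cycle genes was 4103 and 4243 in DNAJ-PKAc A and B but 479 in DNAJ-PKAc C, against 1114, 990 and 1268 in WT libraries A to C. None of the 24 was highest in DNAJ-PKAc C, and 0 passed with all 6 libraries in edgeR (8 at an unadjusted p under 0.05) and in limma-voom, beside 2 called higher by DESeq2. All 24 rose without DNAJ-PKAc C, in a fit that called 14.3% of all genes higher. With all 6 libraries Cdk1, the kinase of mitotic entry, had a log2 difference of 2.00 (edgeR adjusted p = 0.127), and Bub1b, Mcm2, Top2a and Mki67 were at 2.14, 1.12, 0.92 and 1.34. The summed mesenchymal markers were higher in DNAJ-PKAc C too, where they reached 35244 CPM, beside 19013 CPM in DNAJ-PKAc A and 18656 CPM in DNAJ-PKAc B. The part of either list in the levels of the stress response genes was not tested.

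Of 18 genes for other kinases, phosphatase subunits, eIF2 and its exchange factor eIF2B, 0 rose or fell in edgeR (5 at an unadjusted p under 0.05) and in limma-voom, while DESeq2 called 1 lower, with a median log2 difference of 0.16 beside 0.05 over all genes. Dnajc3, the p58IPK inhibitor of these kinases, was at 130, 134 and 121 CPM in DNAJ-PKAc libraries A to C, against 186, 178 and 166 CPM in WT libraries A to C (log2 -0.46, SE 0.14, edgeR adjusted p = 0.130). Gcn1l1, the activator of GCN2, had a log2 difference of -0.67 (edgeR adjusted p = 0.172), the eIF2gamma gene Eif2s3x 0.42 (0.220) and the eIF2beta gene Eif2s2 0.03 (0.915). Without DNAJ-PKAc C 4 of the 18 rose, Eif2s3x among them (edgeR adjusted p = 0.0340), in a fit that called 14.3% of all genes higher. Ppp1r15a (GADD34), the stress-induced phosphatase subunit that ends the response and an ATF4 and CHOP target, was picked out after its values were seen. Its highest library was DNAJ-PKAc C as well, with 41.4, 32.2 and 97.5 CPM in DNAJ-PKAc libraries A to C, against 54.8, 65.9 and 32.5 CPM in WT libraries A to C (log2 0.16, SE 0.45, edgeR adjusted p = 0.856).

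Among 10 tested partners and regulators of ATF4, 1 rose and 0 fell in edgeR (2 at an unadjusted p under 0.05). Over all genes tested 1.37% were called higher and 2.14% lower, and 21.5% had an unadjusted p under 0.05. Cebpd, a C/EBP factor that can pair with ATF4, was at 102, 93.0 and 181 CPM in DNAJ-PKAc libraries A to C, against 30.4, 23.7 and 31.7 CPM in WT libraries A to C. It rose 4.38-fold (log2 2.13, SE 0.29, edgeR adjusted p = 0.0141), with every DNAJ-PKAc library far above every WT library. The call was lost without WT A, B or C (edgeR adjusted p = 0.0746, 0.0705 and 0.0674), at log2 differences between 1.97 and 2.21. Cebpb had a log2 difference of 0.58 (edgeR adjusted p = 0.201), Crebzf 0.32 (0.331), the redox factor gene Nfe2l2 0.19 (0.473) and Trib2 0.14 (0.819). Nupr1, a small stress-induced chromatin protein and ATF4 target picked out after its values were seen, was at 28.9, 26.6 and 101 CPM in DNAJ-PKAc libraries A to C, against 89.0, 79.9 and 104 CPM in WT. DNAJ-PKAc C sat inside the WT range there and not above it. Nupr1 passed in the fit without DNAJ-PKAc C (log2 -1.71, edgeR adjusted p = 0.00132), which called 11.0% of all genes lower.

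Of 25 other tested ATF4 targets for amino acid supply and stress, 1 rose and 1 fell in edgeR (5 at an unadjusted p under 0.05). The same fit called 1.37% of all genes higher and 2.14% lower, with 21.5% at an unadjusted p under 0.05. The list median of 0.08 was near the 0.05 of all genes. Fgf21, a fasting and stress hormone of liver, had 20, 17 and 59 counts in DNAJ-PKAc libraries A to C, against 2, 2 and 0 counts in WT libraries A to C. It rose by 4.52 on the log2 scale (SE 0.90, edgeR adjusted p = 0.0444), from counts so low in WT that the size is poorly set. Ero1l, the oxidase that drives disulfide formation in the endoplasmic reticulum and also a hypoxia target, was at 200, 223 and 397 CPM in DNAJ-PKAc libraries A to C, against 729, 851 and 655 CPM in WT libraries A to C. It fell 2.72-fold (log2 -1.45, SE 0.29, edgeR adjusted p = 0.0444). The Fgf21 call was also lost in limma-voom. Both calls were lost without any 1 library other than DNAJ-PKAc C (edgeR adjusted p of 0.0858 to 0.148 for Fgf21 and 0.116 to 0.174 for Ero1l). Ndrg1 had a log2 difference of -0.79 (edgeR adjusted p = 0.0973). Of the 25 genes, 8 were highest in DNAJ-PKAc C, as were 23.6% of all genes tested. The amino acid transporter subunits Slc7a5 and Slc3a2, picked out after their values were seen, were at 332 and 443 CPM in DNAJ-PKAc C. They were at 110 to 208 and 193 to 239 CPM in WT, with DNAJ-PKAc A and B at 133 to 144 and 220 to 225 CPM. The transporter gene Slc7a11 differed, at 142, 159 and 80.5 CPM in DNAJ-PKAc libraries A to C, against 90.3, 113 and 69.2 CPM in WT libraries A to C.

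The 13 tRNA synthetase and tRNA export genes known as ATF4 targets gave 0 calls in edgeR (1 at an unadjusted p under 0.05), DESeq2 and limma-voom, with a median of 0.16 and 7 of 13 highest in DNAJ-PKAc C. Xpot had a log2 difference of 0.38 (edgeR adjusted p = 0.214), Yars 0.27, Mars 0.22, Sars 0.05 and Aars -0.11. The 24 tested genes of the ATF6 and IRE1 arms, which respond to unfolded protein beside PERK, also gave 0 calls in edgeR (4 at an unadjusted p under 0.05) and in limma-voom, while DESeq2 called 2 lower, with a median of 0.03 and 2 of 24 highest in DNAJ-PKAc C. In that list the chaperone genes Hspa5 (BiP) and Hsp90b1 differed by 0.05 (SE 0.21) and 0.20 (SE 0.21). Calr, the calcium-binding chaperone calreticulin, was at 1148, 1189 and 668 CPM in DNAJ-PKAc libraries A to C, against 707, 517 and 619 CPM in WT (log2 0.71, edgeR adjusted p = 0.185). Ern1, which encodes the sensor IRE1, was at 29.3, 24.9 and 33.8 CPM in DNAJ-PKAc, against 47.6, 94.6 and 46.4 CPM in WT (log2 -1.10, edgeR adjusted p = 0.118).

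**Figure D4:**
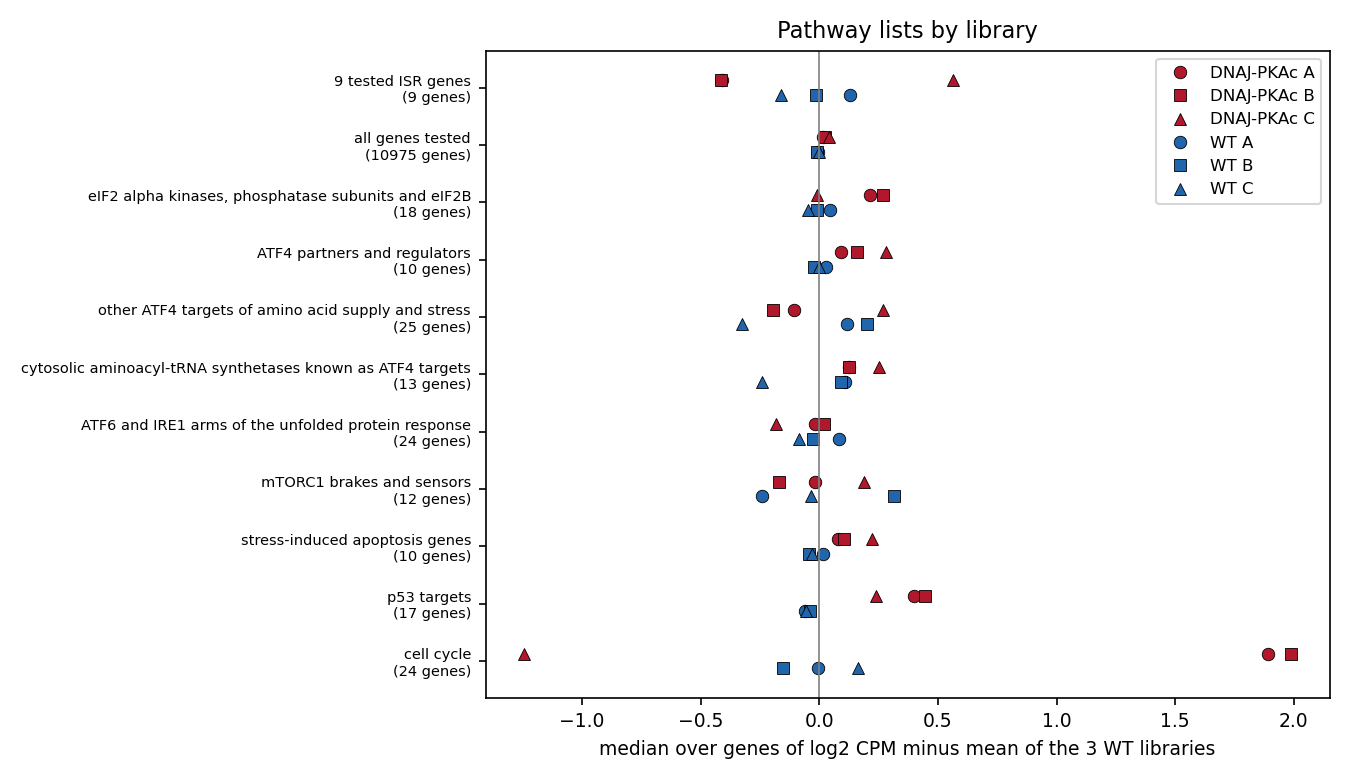
Median over the tested genes of each list of log2 CPM minus the mean of the 3 WT libraries (horizontal axis), per library, with DNAJ-PKAc (red) above WT (blue) in each row. The stress response genes lie at -0.41, -0.41 and 0.57 across DNAJ-PKAc libraries A to C, and the cell cycle genes at 1.89, 1.99 and -1.24.

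Downstream of the pathway, 12 tested genes of mTORC1 and its brakes gave 0 calls in edgeR (3 at an unadjusted p under 0.05) and in limma-voom, with a median of -0.05, while DESeq2 called 1 higher and 1 lower. Rptor, the scaffold of mTORC1, was at 67.5, 64.8 and 89.2 CPM in DNAJ-PKAc libraries A to C, against 140, 245 and 134 CPM in WT (log2 -1.23, SE 0.28, edgeR adjusted p = 0.0649), and Deptor had a log2 difference of 1.75 (0.0744). Rheb, Eif4ebp1 and Mtor differed by 0.38, -0.23 and -0.33. The 10 apoptosis genes gave 0 calls in edgeR (4 at an unadjusted p under 0.05), DESeq2 and limma-voom, with a median of 0.03. There the death receptor gene Tnfrsf10b, a CHOP and p53 target, was at a log2 difference of 0.81 (edgeR adjusted p = 0.122), Bak1 at 0.47 (0.129), Bax at 0.59 (0.165), Mcl1 at -0.10 and Bcl2l1 at -0.06. Several members are also targets of p53. Over all genes tested, 1.37% were called higher and 21.5% had an unadjusted p under 0.05. Of 17 tested p53 targets 1 rose and 0 fell in edgeR (7 at an unadjusted p under 0.05). It was Plk2, a stress-responsive kinase gene, 3.45-fold to 476 ± 99.4 CPM in DNAJ-PKAc, against 138 ± 25.3 CPM in WT (SD, n = 3 each; edgeR adjusted p = 0.0102), a call lost without WT B or WT C (edgeR adjusted p = 0.0569 and 0.0586). Fas, at 2.80 to 2.96 CPM in DNAJ-PKAc and 0.773 to 1.42 CPM in WT, did not pass (edgeR adjusted p = 0.0790), nor did Ccng1 (log2 0.28, edgeR adjusted p = 0.434). The p53 list had a median of 0.39, beside 0.05 over all genes, with 13 genes above 0 and 4 below. Set to the average of WT, its library medians were 0.40, 0.44 and 0.24 for DNAJ-PKAc A to C. Without DNAJ-PKAc C 6 of the 17 rose and 1 fell, in a fit that called 14.3% of all genes higher and 11.0% lower. The cause was not tested.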

How the data were processed

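RNA-seq counts of 6 libraries, 3 of genotype DNAJ-PKAc and 3 of genotype WT, were grouped by title and genotype in the labels. The authors deposited 1 table of expected counts per gene symbol, not normalized, per the file headers. The submitters' processing notes list STAR 2.5.2b, RSEM 1.3.0 and mm10 but not what each was used for. Libraries were made with a stranded kit for total RNA, as the labels' protocols say. No source used here gives the annotation, the filters or whether counting used strand. In each library 1.52% to 1.68% of values had a fractional part, and they were rounded. Genes were kept by filterByExpr (minimum count 10), which left 10975 of 24054. edgeR 4.0.16 in R 4.3.3 fitted a robust quasi-likelihood model with TMM scaling and group as the only term, with Benjamini-Hochberg adjustment over all genes tested, 2-sided, at a threshold of 0.05. CPM are TMM-scaled, except marker and cell cycle sums on plain totals. Per-library log2 values used a prior count of 2. Intervals are 95%, and floors and intervals of counts cover counting error only. Coordinates are 1-based, from RefSeq (GRCm38.p6, the same assembly as mm10), where all 10 genes were found.

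The 10 genes, the 9 pathway lists and the marker lists were chosen with earlier results of these data known. Named were the 10 genes, each one's nearest member, Prkaca and Dnajb1 (log2 0.00075, edgeR adjusted p = 0.999), and in each pathway and marker list the 3 tested genes of smallest p and the 2 of highest CPM. Any other gene was chosen with its values known. Other fits used RLE or upper-quartile scaling, DESeq2 1.42.0, limma-voom (limma 3.58.1), no filter, a filter of 1 CPM in 3 libraries, a non-robust fit, a block for the replicate letter, libraries left out, structural RNA left out and a threshold of 0.01. The tests were tested on simulated data, where DESeq2 made more false calls than edgeR and limma-voom. The simulated counts had no library set apart across genes, as DNAJ-PKAc C and WT B are here. They therefore cannot tell how the tests behave on these libraries. No 2 libraries agreed within sampling noise.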

Additional observations from a re-analysis of the deposited data

How the results depend on the processing

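Over all alternatives, 0 of the 9 stress response genes rose, and genes fell only in fits without DNAJ-PKAc C. Without it 2 fell (Ddit3 and Trib3), in a fit that called 25.3% of all genes, 11.0% lower. Without both WT B and DNAJ-PKAc C 4 fell (Eif2ak3, Atf3, Atf5 and Ddit3), in a fit that called 48.5% of all genes, 24.5% lower. Leaving out DNAJ-PKAc C also leaves DNAJ-PKAc with its closest pair, with r of 0.993 across genes. Leaving out 1 library each, between 0 and 2 genes fell and 0 rose. DNAJ-PKAc C stayed the highest library in 7 genes under every scaling and filter run.

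Members whose difference lay near 0 changed sign. Without both WT B and DNAJ-PKAc C the log2 differences were -0.052 for Atf4, -0.48 for Atf5, -0.68 for Ddit3, -0.22 for Ddit4, -0.26 for Chac1 and -0.08 for Sesn2. Leaving out 1 library each, they ran from -0.51 to 0.26 for Atf5, from -0.59 to 0.39 for Ddit3, from -0.17 to 0.33 for Ddit4, from -0.33 to 0.23 for Chac1 and from -0.19 to 0.14 for Sesn2, and were lowest without DNAJ-PKAc C in each. Atf5 and Sesn2 were at -0.027 and -0.027 with RLE factors, at -0.036 and -0.039 with upper-quartile factors and at -0.026 and -0.027 in DESeq2, and Chac1 at -0.0073 with upper-quartile factors. With limma-voom Atf5 was at -0.10 and Ddit3 at -0.082. The cause of these changes was not tested.

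Over all genes 150 rose and 235 fell. The counts were 348 and 626 in DESeq2, 56 and 143 with the replicate letter as a block, 14 and 58 at a threshold of 0.01, and 2633 and 2703 without both WT B and DNAJ-PKAc C. Leaving out 1 library each they ran from 19 to 1587 and from 51 to 1221, highest without DNAJ-PKAc C. Among genes of the 9 pathway lists 3 rose and 1 fell. The counts were 6 and 5 in DESeq2, 0 and 0 at a threshold of 0.01, and 58 and 25 without both WT B and DNAJ-PKAc C, and 2 fell with upper-quartile factors. Leaving out 1 library each they ran from 0 to 44 and from 0 to 11. Prkaca passed without DNAJ-PKAc C and without both libraries (log2 0.71 and 0.77), and over single libraries left out its difference ran from 0.47 to 0.71.

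The titles tell the replicates apart only by letter. Deviations from the group means of same-lettered libraries correlated at 0.21, -0.20 and 0.03 for A, B and C, and DNAJ-PKAc B correlated best with WT A. With 3 libraries per group these values cannot show whether same-lettered libraries were prepared together. In the block fit, Atf5 was at -0.10 and Ddit3 at -0.084, 0 of the 9 genes rose or fell, and 0 pathway list genes fell, so that the calls of Fgf21 and Ero1l were lost. Gdf15, with 1 count in DNAJ-PKAc B and 1 in WT B, was kept only in the fit with no filter, where its result was not read out.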
